A study of Mus musculus with 24 samples.

Results

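The growth hormone and insulin-like growth factor (IGF) axis was described here through 10 genes of the poly-A RNA count table, which holds 55401 genes in all. The genes were Igf1, Igfbp3, Igfbp4, Igfbp5, Ghr, Igf1r, Igf2r, Irs1, Socs2 and Cish. They were chosen by name, with earlier results of these data known, and each was found through its Ensembl identifier. The other gene lists below were chosen with the same knowledge. The shares of all genes given beside their counts are thus a description and not a test of the lists. All 10 passed the filter on low counts and were tested.

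The samples were gastrocnemius muscle of male C57BL6 mice, taken 24 h after a sham procedure or a scald, which covered 25% of the skin. Per the study's methods, burned mice also received lactated Ringer's solution as resuscitation, and sham mice did not. Scald and fluid therefore cannot be told apart, and burn below means both. Young mice arrived at 4 weeks and were 5 weeks old at the burn. Adult mice arrived at 10 weeks and were 11 weeks old at the burn. The groups were adult burn, adult sham, young burn and young sham, with 3 libraries each and no genetic modification named for any of them. The design asks how muscle of young and adult mice differs without injury, how burn changes each age, and whether the burn change depends on age.

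Growth hormone from the pituitary binds its receptor Ghr, and the receptor acts through the kinase JAK2 and the transcription factor STAT5. Among the genes STAT5 turns on are Igf1, made in liver and locally in muscle, and Socs2 and Cish, whose products dampen the same signal. IGF1 binds the receptor Igf1r, which passes the signal through adapters such as Irs1 to the kinases PI3K and AKT, and IGF binding proteins hold the ligand outside the cell. In muscle the axis is known for supporting growth and protein synthesis.

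The 12 libraries held 4392605 to 5688512 counts, with all 3 adult burn libraries (5585064 or more) above the other 9. Levels are given as CPM, counts put on a common library size after correction by the trimmed mean of M values (TMM). Young burn replicate 2 stood apart from the other young burn libraries. The study left 1 young burn animal out, and its heat map shows replicates 1 and 3, so tests are given for the 11 libraries without replicate 2 and then for all 12. A gene was called where the adjusted p of edgeR's quasi-likelihood test was under 0.05 over the 12651 genes tested in 11 libraries, or the 12408 tested in 12. The labels name the libraries as separate samples, and the p-values measure the spread between them. Where groups are said below not to overlap, the share of all genes for which this holds was not counted. Such statements therefore describe the values and add no support to a call. The study's RNA quality report gives no RNA integrity number for any sample. In that report the ratio of large to small ribosomal RNA was higher in adult sham replicates 1 and 3 than in every other sample. RNA quality was thus uneven between adult sham and the other groups by this ratio. Its part in the comparisons with adult sham was not tested. The muscle fibre markers (Acta1, Ckm, Myh4, Mylpf, Tnnt3, Ttn) summed to between 82040 and 163900 CPM in every library. The hepatocyte markers Alb, Apoa1 and Ttr together reached at most 1.03 CPM, so liver transcripts were near 0.

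Compared per kilobase of exon, the binding proteins had the highest levels of the 10 genes. Averaged over the 12 libraries, Igfbp5 had 58.8 CPM per kb and Igfbp4 had 57.1 CPM per kb. Igfbp3 followed with 14.7, Ghr with 13, Igf1 with 11.3 and Igf2r with 7.84 CPM per kb. Socs2 (3.34), Irs1 (2.07), Cish (2.07) and Igf1r (1.86) were the lowest on the same per-length scale. The length used joins all annotated exons of a gene and is not that of the transcript expressed. For Cish it was 6419 bases, nearly the whole gene, so the order of the genes depends partly on the annotation. The steadiest member was Igf2r, whose highest library was 1.31-fold its lowest. Cish varied most, with a highest library 45.6-fold its lowest, and both of those libraries were adult burn.

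**Figure D1:**
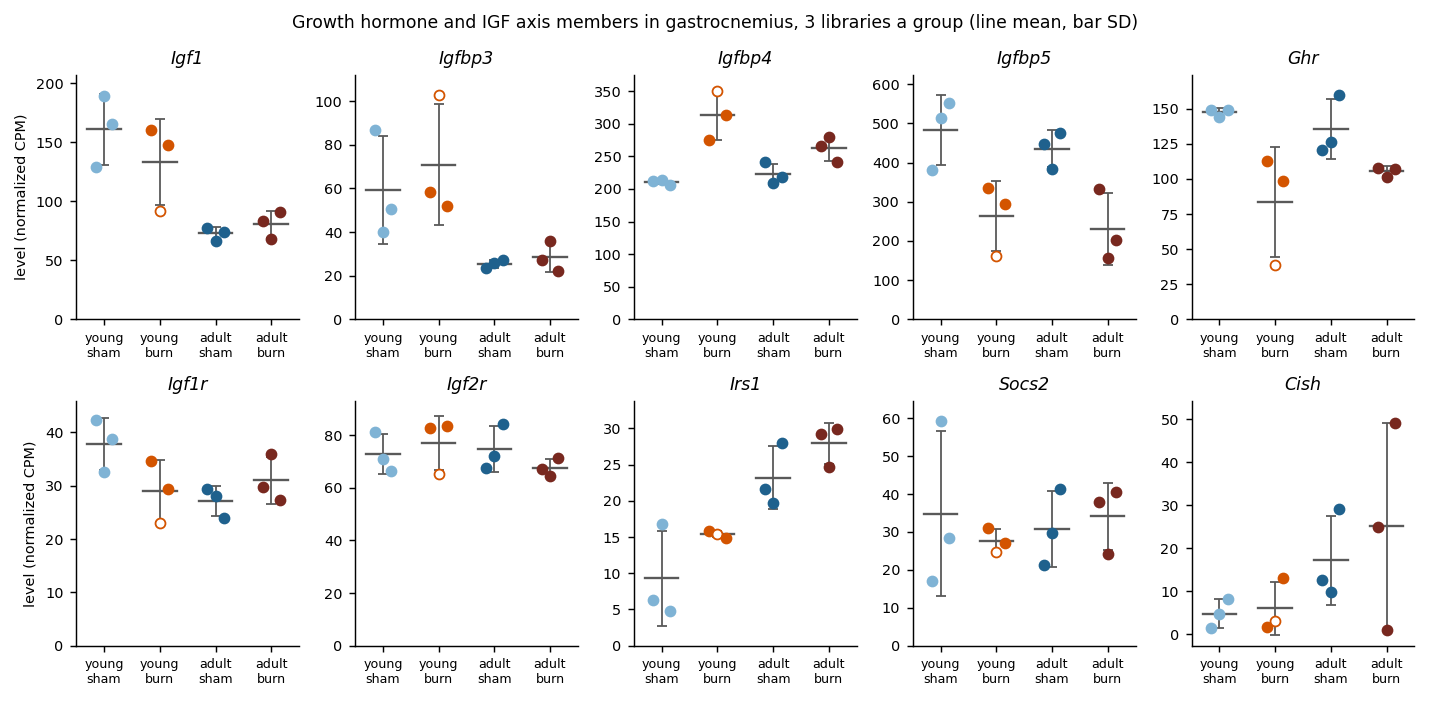
Level of each of the 10 genes in every library, as TMM-scaled CPM on a linear axis, with the 3 libraries of a group as points, a line at the group mean and a bar of 1 SD; the open point is young burn replicate 2. Igf1 and Igfbp3 lie higher in both young groups than in both adult groups, Igfbp5 lies lower in both burn groups, and Cish spreads from 1.08 to 49.2 CPM within adult burn alone.

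The ligand was higher in young mice. Igf1, which encodes IGF1 (ENSMUSG00000020053.18, GRCm38, chr10:87858265-87937042, plus strand), had 129, 189 and 165 CPM in young sham and 77.4, 66.5 and 74.2 CPM in adult sham. It had 161, 91.7 and 147 CPM in young burn and 83.1, 68.0 and 90.7 CPM in adult burn, in order of replicate. Every young library was above every adult library, and the closest was young burn replicate 2. In the sham groups Igf1 was 2.23-fold higher in young mice (log2 fold change 1.15, standard error 0.14, edgeR adjusted p = 0.000305), and in all 12 libraries the adjusted p was 0.00992. In the burn groups it was 1.95-fold higher (log2 fold change 0.96, standard error 0.15, edgeR adjusted p = 0.000949), and 0.75 on the log2 scale with adjusted p = 0.0321 in 12 libraries. In bulk RNA, fewer cells of one type and less RNA per cell cannot be told apart.

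Igfbp3 (ENSMUSG00000020427.11, chr11:7206086-7213923, minus strand) encodes a binding protein that carries much of the IGF1 in blood, and it moved with age in the same direction as Igf1. It had 87.0, 40.1 and 50.7 CPM in young sham, against 23.7, 25.7 and 27.4 CPM in adult sham. Young burn had 58.2, 103 and 51.9 CPM, against 27.4, 35.8 and 22.1 CPM in adult burn. No young library overlapped an adult library. Igfbp3 was 2.31-fold higher in young sham than adult sham (log2 fold change 1.21, standard error 0.23, edgeR adjusted p = 0.0048 in 11 libraries and 0.0409 in 12). It was 1.97-fold higher in young burn than adult burn (log2 fold change 0.98, standard error 0.25, edgeR adjusted p = 0.0127 in 11 and 0.0139 in 12). The second of these calls was lost in edgeR without adult burn replicate 3 (adjusted p = 0.0503), young burn replicate 1 (0.0995) or young burn replicate 3 (0.0511).

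The adapter Irs1 (ENSMUSG00000055980.2, chr1:82233101-82291416, minus strand), which couples the IGF1 and insulin receptors to PI3K, lay the other way. It had 6.32, 16.8 and 4.80 CPM in young sham and 21.7, 19.8 and 28.0 CPM in adult sham. It had 15.8, 15.5 and 14.9 CPM in young burn and 29.2, 24.6 and 29.9 CPM in adult burn. All 6 young libraries were below all 6 adult libraries, and young sham replicate 2 sat with the young burn libraries, away from the other young sham libraries. Irs1 was 2.40-fold lower in young sham than adult sham (log2 fold change -1.26, standard error 0.30, edgeR adjusted p = 0.0143 in 11 libraries and 0.0454 in 12), and without young sham replicate 3 the edgeR adjusted p was 0.0674. Without young sham replicate 2 the log2 fold change was -2.05 (edgeR adjusted p = 0.000222). In the burn groups the log2 fold change was -0.83 (standard error 0.30, edgeR adjusted p = 0.0616) and was not called. An antisense protein-coding gene, Gm9747, overlaps exons of Irs1, and the sources used here do not state whether reads were counted by strand.

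Igf1r (ENSMUSG00000005533.10, chr7:67952827-68233668, plus strand), the receptor for IGF1, had 42.3, 32.5 and 38.7 CPM in young sham and 29.3, 28.2 and 24.0 CPM in adult sham. These groups did not overlap, and the log2 fold change was 0.48 (standard error 0.14, edgeR adjusted p = 0.038). This call was the least firm of the 4 made between the sham groups. The adjusted p for Igf1r was 0.127 by edgeR in all 12 libraries, 0.0712 by DESeq2 in 11, and from 0.0567 to 0.126 by edgeR when any adult sham library, young sham replicate 1 or young sham replicate 3 was left out. In burned mice Igf1r had 34.7, 23.1 and 29.5 CPM in young and 29.7, 36.0 and 27.3 CPM in adult mice, and these ranges overlapped (log2 fold change 0.08, edgeR adjusted p = 0.745).

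In all, edgeR called 4 of the 10 genes in the sham groups, where 11.8% of all genes tested were called. Igf1, Igfbp3 and Igf1r were higher in young sham, where 5.27% of all genes were higher, and Irs1 was lower, where 6.49% were lower. Between young burn and adult burn 2 of 10 were called, Igf1 and Igfbp3, both higher in young mice. Of all genes 20.7% were called there and 11.2% were higher, so the share of members called was near the background. Over both treatments 4 of 10 were called, where 29.3% of all genes were called, 14.8% higher and 14.5% lower, so this share too was not far from the background. The log2 fold changes of young against adult were then 1.07 for Igf1 (standard error 0.11, edgeR adjusted p = 7.79e-06), 1.10 for Igfbp3 (standard error 0.17, edgeR adjusted p = 0.00025) and -1.05 for Irs1 (standard error 0.21, edgeR adjusted p = 0.00223). These 3 stayed called in all 12 libraries, by DESeq2 and when any single library was left out.

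Cish (ENSMUSG00000032578.7, chr9:107296026-107302784, plus strand), an inhibitor of signalling by the growth hormone receptor, was the fourth gene called over both treatments. The 300 bases around its start are shown because it was the one member whose window held the STAT motif, credited to RefSeq with build GRCm38.p6, chr9:107296409-107296708 on the plus strand.

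Cish: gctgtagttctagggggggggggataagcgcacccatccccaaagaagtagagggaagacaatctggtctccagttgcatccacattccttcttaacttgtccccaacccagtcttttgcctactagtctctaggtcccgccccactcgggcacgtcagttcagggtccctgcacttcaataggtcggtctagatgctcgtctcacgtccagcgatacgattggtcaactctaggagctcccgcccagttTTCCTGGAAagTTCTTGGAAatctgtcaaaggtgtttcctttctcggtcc

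Capitals mark matches to the STAT motif TTCNNNGAA, which reads the same pattern on both strands. The window runs from 250 bases before the transcript start to 50 after it, and the matches begin at bases 1 and 12 counted from the start. At least 1 match was present in 8.30% of 32851 windows, and 2 or more in 0.457%. The windows of the other 8 members that had one (all but Socs2) held no match, nor did any member's window hold the forkhead motif GTAAACA, which 3.65% of windows held. A match describes letters in this window and is no evidence of binding.

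Cish had 1.46, 4.79 and 8.17 CPM in young sham and 12.6, 9.76 and 29.1 CPM in adult sham. It had 1.78, 3.09 and 13.1 CPM in young burn and 25.0, 1.08 and 49.2 CPM in adult burn. The sham groups did not overlap, whereas adult burn replicate 2 was below every young library. Over both treatments Cish was 3.46-fold lower in young mice (log2 fold change -1.79, standard error 0.63, edgeR adjusted p = 0.042 in 11 libraries and 0.0407 in 12). DESeq2 gave an adjusted p of 0.112 for Cish, and 6 of the 11 single libraries ended the edgeR call when left out. These were adult burn replicates 1 and 3, adult sham replicate 3, young burn replicate 1 and young sham replicates 1 and 2, with edgeR adjusted p from 0.0574 to 0.126. Within the sham groups the edgeR adjusted p for Cish was 0.211, and within the burn groups 0.178. Cish also shares exonic sequence with the antisense genes Gm17040 and Gm17041.

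**Figure D2:**
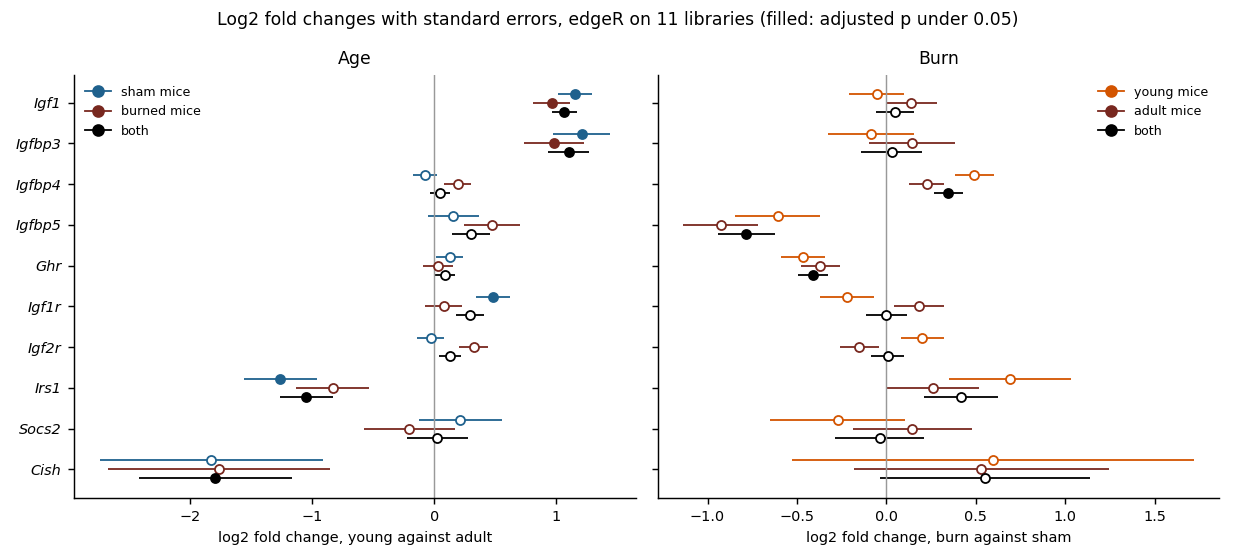
Log2 fold change of each of the 10 genes on a linear axis of log2 values, with bars of 1 standard error from edgeR in 11 libraries, for young against adult mice (left) and burn against sham (right); filled points have an adjusted p under 0.05. With age Igf1 and Igfbp3 stand near 1 and Irs1 near -1, and with burn the filled points are Igfbp4, Igfbp5 and Ghr over both ages.

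Fibroblast markers moved with the age differences of Igf1 and Igfbp3. The 7 markers (Pdgfra, Dcn, Col1a1, Col3a1, Lum, Dpt and Pi16) summed to 6026 to 6392 CPM in young sham and 5893 to 7483 CPM in young burn, against 2602 to 3466 CPM in adult sham and 2657 to 3572 CPM in adult burn. Most of the sum came from Dcn, Col3a1 and Col1a1. Over the 12 libraries these ran from 1594 to 2333, 374 to 2980 and 232 to 2091 CPM. Between the sham groups 2 of the 7 were called higher in young mice and 0 lower, where 5.27% of all genes were higher, and all 7 had a log2 fold change above 0. Over both treatments 5 of the 7 were called higher in young mice (4 in all 12 libraries) and 0 lower, and none of the 7 was at 0 counts in any group. For this list and those below, 14.8% of all genes were called higher in young mice over both treatments in the 11 libraries. In all 12 libraries 19.9% of all genes were called there in either direction. Their part in the higher Igf1 and Igfbp3 was not tested. Endothelial markers (4 of 7 called higher in young mice over both treatments) summed to 366 to 485 CPM in young sham, 409 to 525 in young burn, 337 to 361 in adult sham and 313 to 363 CPM in adult burn. Schwann cell markers (3 of 4 higher, and 2 in all 12 libraries) summed to 85.5 to 168 CPM in young sham, 58.8 to 177 in young burn, 65.4 to 79.7 in adult sham and 54.4 to 76.3 CPM in adult burn. Macrophage markers (3 of 9 higher with age, and 1 in all 12 libraries) are given with the burn results. The part of these lists was not tested either.

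Igfbp5, the member with the highest mean level per kilobase over the 12 libraries, was lower after burn. Igfbp5 (ENSMUSG00000026185.8, chr1:72857932-72874884, minus strand), a binding protein found in muscle tissue and extracellular matrix, had 381, 514 and 553 CPM in young sham and 335, 163 and 294 CPM in young burn. Adult sham had 448, 382 and 474 CPM and adult burn had 333, 156 and 203 CPM. At each age every burn library was below every sham library. Over both ages Igfbp5 was 1.72-fold lower after burn (log2 fold change -0.78, standard error 0.16, edgeR adjusted p = 0.0194 in 11 libraries), and in all 12 the log2 fold change was -0.90 with edgeR adjusted p = 0.0466. The call was lost in edgeR without adult sham replicate 3 (adjusted p = 0.0514) or young burn replicate 3 (0.0662). Within adult mice the log2 fold change was -0.93 (standard error 0.21) and within young mice -0.61 (standard error 0.24). The edgeR adjusted p for Igfbp5 in adults was 0.0523 and that by DESeq2 was 0.00118, while edgeR gave 0.569 in all 12 libraries. Leaving out adult burn replicate 1 brought the edgeR adjusted p for Igfbp5 in adults to 0.00265.

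Ghr (ENSMUSG00000055737.12, chr15:3317760-3583492, minus strand), the growth hormone receptor, was lower after burn by a smaller factor. It had 149, 144 and 149 CPM in young sham and 113, 38.7 and 98.9 CPM in young burn. It had 121, 126 and 160 CPM in adult sham and 108, 102 and 107 CPM in adult burn. The burn libraries lay below the sham libraries at both ages, and young burn replicate 2 was far below all the others. Over both ages Ghr was 1.33-fold lower (log2 fold change -0.41, standard error 0.08, edgeR adjusted p = 0.018 in 11 libraries). With young burn replicate 2 the log2 fold change was -0.59 (standard error 0.20) and the edgeR adjusted p was 0.138, so the call rested on leaving that library out. The edgeR adjusted p for Ghr was also 0.0533 without adult sham replicate 3 and 0.0894 without young burn replicate 3.

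Igfbp4 (ENSMUSG00000017493.12, chr11:99041244-99054392, plus strand), a binding protein that withholds IGF1 until the protease Pappa cleaves it, lay higher after burn. It had 213, 213 and 207 CPM in young sham and 275, 350 and 313 CPM in young burn. It had 241, 210 and 218 CPM in adult sham and 265, 280 and 242 CPM in adult burn, so in adults the lowest burn library was just above the highest sham library. Over both ages Igfbp4 was 1.27-fold higher (log2 fold change 0.34, standard error 0.08, edgeR adjusted p = 0.0377 in 11 libraries), and in all 12 the log2 fold change was 0.40 with edgeR adjusted p = 0.069. In edgeR 8 of the 11 single libraries ended this Igfbp4 call when left out (adjusted p from 0.0529 to 0.164), namely adult burn replicates 1 and 2, adult sham replicates 2 and 3, young burn replicates 1 and 3 and young sham replicates 2 and 3. With the replicate number as a block the adjusted p for Igfbp4 was 0.0811. In young mice alone the log2 fold change of Igfbp4 was 0.49 (standard error 0.11), with adjusted p = 0.0546 in edgeR and 0.00479 in DESeq2.

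Over both ages 3 of the 10 genes were thus called with burn by edgeR, 1 higher and 2 lower, where 2.15% of all genes tested were called, 1.46% higher and 0.688% lower. Within one age edgeR called none of the 10. In adult burn against adult sham 0.909% of all genes were called. There 3 of the 10 members (Ghr, Igfbp4 and Igfbp5) had an unadjusted p under 0.05, as did 13.7% of all genes. DESeq2 called 1 of the 10 there, Igfbp5, and 2.35% of the 8966 genes to which it gave an adjusted p. In young burn against young sham 0.664% of all genes were called. The same 3 members had an unadjusted p under 0.05 there, as did 16.0% of all genes. DESeq2 called Ghr and Igfbp4 in that comparison, with 2.13% of the 8966 genes to which it gave an adjusted p. Igf1 did not pass the test with burn, where its log2 fold change was 0.05 (standard error 0.11, edgeR adjusted p = 0.86) over both ages.

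Markers of other cells moved with these burn differences. The 9 macrophage markers (Adgre1, Cd68, Csf1r, C1qa, C1qb, C1qc, Lyz2, Cd163 and Mrc1) summed to 309 to 430 CPM in young sham and 537 to 913 CPM in young burn, and to 320 to 390 CPM in adult sham and 393 to 536 CPM in adult burn. Of these 5 were called higher with burn over both ages and 0 lower, where 1.46% of all genes were higher, and 2 were called higher in all 12 libraries. The 6 tendon markers (Scx, Tnmd, Mkx, Fmod, Comp and Chad) summed to 273 to 319 CPM in young sham and 77.6 to 160 CPM in young burn, and to 107 to 247 CPM in adult sham and 98.5 to 149 CPM in adult burn. Of these 5 were called lower with burn over both ages and 0 higher, where 0.688% of all genes were lower, and 3 were called lower in all 12 libraries. None of these markers was at 0 counts in any group. With burn over both ages 0.717% of all genes were called in all 12 libraries, in either direction. Of 5 neutrophil markers (S100a8, S100a9, Retnlg, Ly6g and Cxcr2) 2 were tested, and both were called higher with burn over both ages (1 of them in all 12 libraries). The 5 summed to 1.60 to 3.16 CPM in young sham and 8.68 to 26.9 CPM in young burn, and to 1.70 to 4.54 CPM in adult sham and 5.93 to 13.3 CPM in adult burn, with Ly6g at 0 counts in each group. The part of these lists in the burn differences of Igfbp4, Igfbp5 and Ghr was not tested. The 6 muscle fibre markers summed to 112800 to 163900 CPM in young sham and 82040 to 105100 CPM in young burn, which did not overlap, and to 95940 to 106300 CPM in adult sham and 97850 to 114600 CPM in adult burn. All 6 had a log2 fold change below 0 in young burn against young sham (median -0.40), and 0 of 6 were called there or over both ages. Their part was not tested either.

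The same levels of Igfbp3, Igfbp4 and Igfbp5 were also expressed as shares of their summed level per kilobase of exon in each library. This view was added after the burn differences of Igfbp4 and Igfbp5 had been seen, re-expresses them, and leaves out the other binding proteins, so it is given as a description with no test. The median share of Igfbp5 was 58.4% in young sham and 54.6% in adult sham, against 35.8% in young burn and 35.3% in adult burn. The median share of Igfbp4 was 32.9% in young sham and 39.8% in adult sham, against 52% in young burn and 57.3% in adult burn. With the exon lengths used (4416 bases for Igfbp4 and 6006 for Igfbp5), Igfbp5 held the largest share in sham libraries and Igfbp4 in burn libraries. Which of the 3 genes was largest depends on these lengths, which join all annotated exons. Shares of Igfbp4 ran from 30.2% to 39.9% in sham libraries and from 45.6% to 62.9% in burn libraries. The median share of Igfbp3 was 10.4% in young sham and 13.6% in young burn, against 6.39% in adult sham and 7.4% in adult burn.

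**Figure D3:**
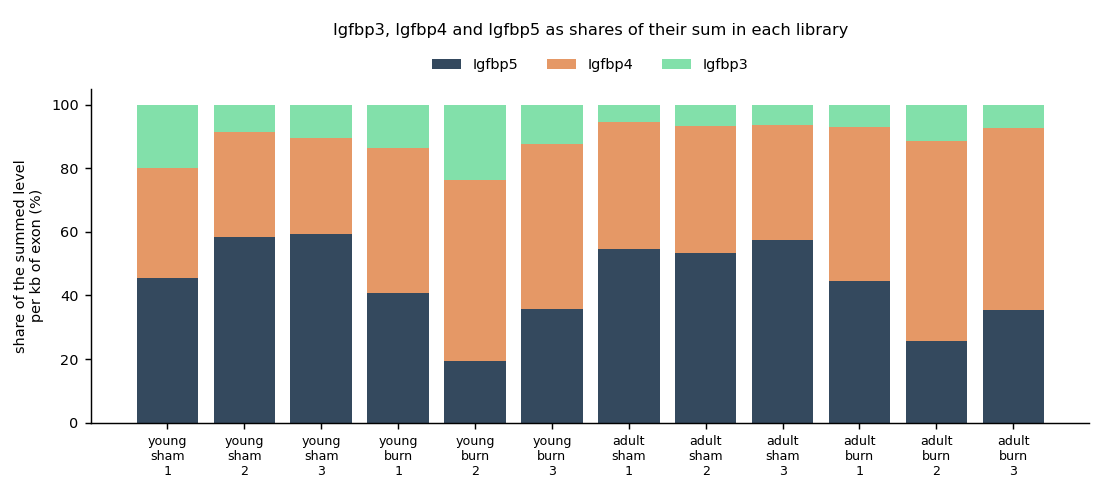
Share of Igfbp5, Igfbp4 and Igfbp3 in their summed level per kilobase of exon, in percent, 1 bar a library in the 4 groups. Igfbp5 takes 45.5% to 59.4% of the sum in sham libraries and 19.4% to 44.6% in burn libraries, and Igfbp3 is larger in most young bars than in adult bars.

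Igf2r and Socs2 were not called in any comparison. Igf2r (ENSMUSG00000023830.14, chr17:12682406-12769664, minus strand), which takes up IGF2 and mannose 6-phosphate tagged proteins, had group means from 67.6 to 77.1 CPM, and its 12 libraries ran from 64.5 to 84.4 CPM. In the test of whether burn acted differently by age its p was 0.0446 before adjustment and 0.434 after it in edgeR. Socs2 (ENSMUSG00000020027.18, chr10:95385362-95417180, minus strand) limits growth hormone signalling. It had 17.0, 59.2 and 28.4 CPM in young sham, 31.1, 24.7 and 27.0 CPM in young burn, 21.3, 29.7 and 41.2 CPM in adult sham and 38.0, 24.1 and 40.5 CPM in adult burn. The 4 groups overlapped, and the young sham libraries alone ran over the whole range of Socs2.

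No member was called in the test of the difference between the burn effects at the 2 ages, where edgeR called 0.0949% of all genes. One member, Igf2r, had an unadjusted p under 0.05, as did 11.1% of all genes, so 1 of 10 was near the background. DESeq2 called 0 of the 10, with 0.409% of the 10515 genes to which it gave an adjusted p in this test. The estimates leave wide intervals for most genes, for example a log2 difference of 0.32 (standard error 0.31) for Igfbp5 and -0.10 (standard error 0.17) for Ghr. A burn effect at one age was therefore not shown to differ from that at the other.

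Igf1, Socs2 and Cish are all known targets of STAT5, and their levels within groups were compared over the 12 libraries. Levels on a log2 scale were centred on their group means. Socs2 and Igf1 had r = 0.594 and Spearman's rho = 0.517, with exact within-group permutation p = 0.0278 (adjusted over 3 pairs 0.0834) and 0.0918 (adjusted 0.174). Cish and Socs2 had r = 0.507 and rho = 0.524, with exact permutation p = 0.0895 (adjusted 0.134) and 0.116 (adjusted 0.174). Cish and Igf1 had r = 0.49 and rho = 0.441, with exact permutation p = 0.169 (adjusted 0.169) and 0.212 (adjusted 0.212). None passed the correction in these 12 libraries. Without the 2 libraries farthest from the median r was 0.402, 0.402 and 0.352, and in the 11 libraries without young burn replicate 2 it was 0.774, 0.501 and 0.624. For these subsets r is given as a description, with no permutation p.

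The rest of the pathway was read from 4 lists of 54 other genes, of which 48 were tested. Gh, Igf2, Igfbp1, Igfbp2, Pappa2 and Irs4 did not pass the filter on low counts. Between the sham groups 4 of the 48 were higher in young mice (Igfbp7, Pappa, Grb10 and Pik3ca) and 5 lower (Ptpn1, Ptpn11, Irs2, Akt2 and Tsc1), where 11.8% of all genes were called. In all 12 libraries 2 were higher and 1 lower, where 3.76% of all genes were called. Between the burn groups 4 were higher in young mice (Stat3, Shc1, Igfbp7 and Grb10) and 11 lower, where 20.7% of all genes were called. In all 12 libraries 4 were higher and 5 lower, where 10.8% of all genes were called. Over both treatments 5 were higher (Igfbp7, Pappa, Grb10, Prlr and Pik3ca) and 13 lower, with a median log2 fold change of -0.13, where 29.3% of all genes were called. In all 12 libraries 5 were higher and 11 lower, where 19.9% of all genes were called. Over both ages 3 were higher with burn (Htra1, Stat3 and Eif4ebp1) and 1 lower (Grb14), with a median of 0.08, where 2.15% of all genes were called. In all 12 libraries 3 were higher and 0 lower, where 0.717% of all genes were called. Over all genes tested the median log2 fold change was 0.0104 with age and 0.00433 with burn.

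Among ligands, binding proteins and their proteases, 7 of 12 were tested. Igfbp7, a low-affinity binding protein, was higher in young sham than adult sham (log2 fold change 0.65, standard error 0.15, edgeR adjusted p = 0.0141). Its levels were 170 to 244 CPM in young sham and 97.4 to 147 CPM in adult sham. Pappa, the protease that cleaves Igfbp4, was also higher in young sham (log2 fold change 1.25, standard error 0.36, edgeR adjusted p = 0.036, and 0.058 in all 12 libraries). DESeq2 gave Pappa an adjusted p of 0.109, and it rested on few reads, 50 counts in the 3 young sham libraries and 22 in the 3 adult sham libraries. Htra1, a secreted protease that cleaves binding proteins and matrix, was the one gene of this list called with burn. It had 102 to 147 CPM in adult burn and 45.2 to 73.3 CPM in adult sham (log2 fold change 1.12, standard error 0.18, edgeR adjusted p = 0.00995, and 0.296 in all 12 libraries). Over both ages it was 1.00 higher on the log2 scale (edgeR adjusted p = 0.00241, and 0.00715 in 12 libraries).

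All 12 genes of the list of receptors and JAK-STAT genes were tested. Stat3, a factor activated by cytokines such as IL-6, had 67.1 to 85.1 CPM in young burn and 39.4 to 44.9 CPM in young sham. Its log2 fold change was 0.77 (standard error 0.12, edgeR adjusted p = 0.0134 in 11 libraries and 0.0277 in 12), and it was the only one of the 48 genes called between these groups. The phosphatases Ptpn1 and Ptpn11 were lower in young mice. Ptpn1, which dephosphorylates the insulin receptor and JAK2, had a log2 fold change of -0.66 between the sham groups (edgeR adjusted p = 0.0125, and 0.064 in all 12 libraries). Ptpn11 had -0.55 between the burn groups (edgeR adjusted p = 0.00461, and 0.0684 in all 12 libraries). Over both treatments 1 gene of this list was higher in young mice, Prlr, and 4 were lower, Insr, Stat5b, Ptpn1 and Ptpn11. Of all genes 29.3% were called there, 14.8% higher and 14.5% lower. Prlr rested on few reads, 24 counts in the 3 young sham libraries and 7 in the 3 adult sham libraries.

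Of the adapters, 7 of 8 were tested. Grb10, an adapter that restrains the IGF1 and insulin receptors, stood at 93.3 to 115 CPM in young sham and 94.8 to 127 CPM in young burn. It stood at 45.4 to 54.8 CPM in adult sham and 43.8 to 58.8 CPM in adult burn. Young and adult libraries did not overlap, and between the burn groups the log2 fold change was 1.23 (standard error 0.13, edgeR adjusted p = 7.14e-05). Irs2, the relative of Irs1 that also binds the insulin receptor, was lower in young sham with 18.7 to 22.8 CPM against 31.6 to 53.4 CPM in adult sham (log2 fold change -1.05, standard error 0.16, edgeR adjusted p = 0.00112). Shc1 was higher in young burn than adult burn (log2 fold change 0.43, edgeR adjusted p = 0.0307, DESeq2 0.108). Grb14, an adapter that inhibits the insulin receptor, was lower in adult burn than adult sham, with 2.34 to 7.69 CPM against 10.7 to 15.5 CPM (log2 fold change -1.42, standard error 0.31, edgeR adjusted p = 0.0443, and 0.555 in all 12 libraries).

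All 22 genes from PI3K to mTOR were tested, and over both treatments 1 was higher and 8 lower in young mice, where 14.8% of all genes were higher and 14.5% lower. In all 12 libraries 1 was higher and 6 lower, where 19.9% of all genes were called in either direction. Akt2, the AKT form that serves insulin-stimulated glucose uptake, had 131 to 159 CPM in young burn and 242 to 305 CPM in adult burn. Its log2 fold change was -0.83 (standard error 0.16, edgeR adjusted p = 0.00282). Tsc1, a brake on mTOR complex 1, was lower by a log2 fold change of -0.66 between the same groups (edgeR adjusted p = 0.0044). The catalytic subunit Pik3ca was 0.39 higher on the log2 scale in young sham than adult sham (edgeR adjusted p = 0.0178, and 0.0743 in all 12 libraries). With burn over both ages the called gene was Eif4ebp1, which binds the cap-binding factor eIF4E. In all 12 libraries 1 gene of this list was called higher with burn over both ages as well. Within adults Eif4ebp1 had 194 to 245 CPM in burn and 61.2 to 119 CPM in sham (log2 fold change 1.31, standard error 0.23, edgeR adjusted p = 0.0179, and 0.555 in all 12 libraries). Within young mice it had 113.5 to 318.5 CPM in burn and 46.3 to 93.5 CPM in sham (log2 fold change 0.87, standard error 0.26, edgeR adjusted p = 0.121, and 0.0771 in all 12 libraries).

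**Figure D4:**
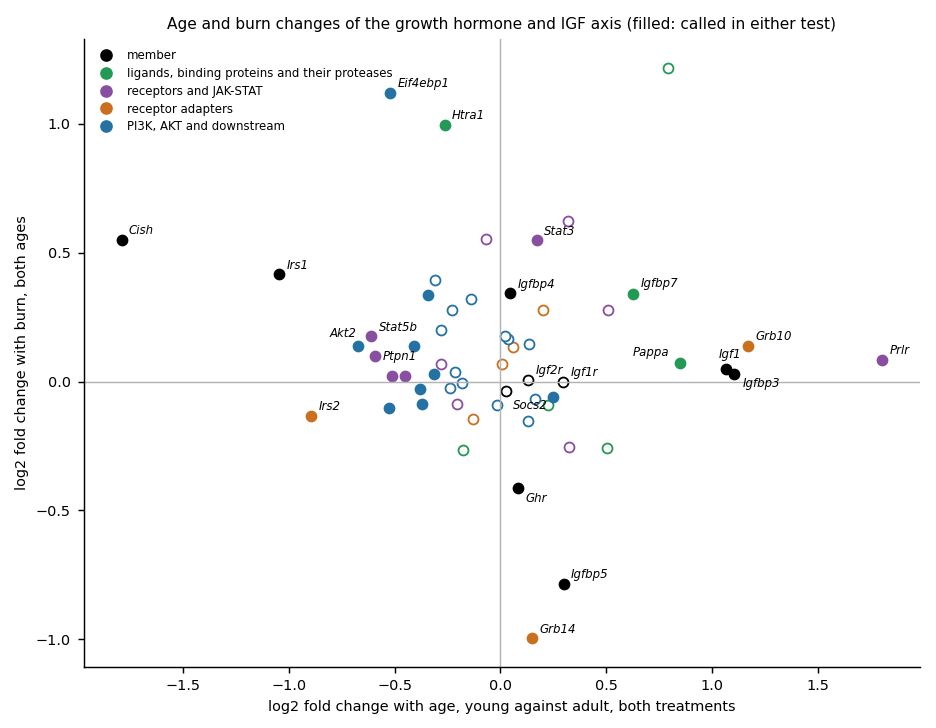
Log2 fold change with age (young against adult, over both treatments, horizontal) against log2 fold change with burn (over both ages, vertical) for the 10 members and 48 other axis genes, from edgeR in 11 libraries; filled points were called in at least 1 of the tests. Igf1, Igfbp3 and Grb10 stand to the right, Cish, Irs1 and Irs2 to the left, Eif4ebp1 and Htra1 at the top, and Igfbp5 and Grb14 at the bottom.

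The tested genes whose log2 levels most resembled 3 of the members were found by Pearson correlation over the 12 libraries, as a description. These libraries share the age and burn groups, so genes that differ between the groups correlate. For Igf1 the closest were Ebf1 (r = 0.963), B230312C02Rik (0.942), Plod2 (0.932) and Gm17066 (0.931). For Ghr they were Phkg1 (r = 0.986), Slc9a2 (0.982), Aamdc (0.98) and Me3 (0.98), and without young burn replicate 2 these values lay between 0.895 and 0.946. For Igfbp5 they were Grb14 (r = 0.965), Sdhaf4 (0.937), D830024N08Rik (0.933) and Klhl29 (0.927). Grb14 was thus the closest of 12408 genes to Igfbp5. It was called lower with burn over both ages in the 11 libraries and not in all 12. Since both genes were lower after burn, their correlation and their burn calls are not separate observations.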

How the data were processed

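Poly-A RNA of 12 gastrocnemius samples was sequenced. The 12 small RNA libraries of the series were not used here. The values are raw gene counts that the authors deposited. Per the study's methods, STAR counted the poly-A reads per gene on the Gencode M25 annotation, and featureCounts was used for the miRNA libraries. The submitters' processing notes give STAR 2.7.5c, bcl2fastq 2.20 and build GRCm38. Whether counting used strand is not stated in the sources used here. The table carries Ensembl identifiers, which were matched here to the older Gencode M21 annotation, and 260 of 55401 had no match. Exon lengths and overlaps came from the same annotation, and promoter windows from RefSeq (GRCm38.p6). The exon length of a gene joined all its annotated exons, with shared bases counted once.

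Counts were fitted with edgeR 4.0.16 in R 4.3.3 (limma 3.58.1), with TMM factors, filterByExpr (min.count 10, min.total.count 15), glmQLFit and glmQLFTest, a mean per group or an additive model of age and treatment, and Benjamini-Hochberg adjustment over all genes tested. The main libraries were the 11 without young burn replicate 2. Which animal the study left out was read from the columns of its heat map. Depth was 4392605 to 5688512 counts a library. DESeq2 1.42.0, relative log expression factors, no filter, all 12 libraries, a replicate block, the compared groups alone and leaving out each library were the alternatives. DESeq2 in all 12 libraries and scaling by library size alone were added after seeing the data, as were the binding protein shares and the correlations within groups. The fits were tested on simulated counts.

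The members and gene lists were chosen with earlier results of these data known. All members are named, up to 3 genes of each list by the lowest adjusted p in any pairwise comparison among those called, every gene where 5 or fewer were called, and the 4 genes most like Igf1, Ghr and Igfbp5. Prlr, Insr and Stat5b were named with the list they belong to. Replicate numbers showed no clear pairing of the samples, though 3 libraries a group cannot exclude one. No 2 libraries of a group agreed within sampling noise (lowest chi-square per degree of freedom 3.47 over 12 pairs).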

Additional observations from a re-analysis of the deposited data

How the results depend on the processing

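No called member reversed direction under the alternatives run, and Igf1 kept its call under all of them in every comparison it was called in. Between young sham and adult sham the count of members called was 2 to 4 when 1 library was left out, with 2 without young sham replicate 3. In adult burn against adult sham 1 member, Igfbp5, was called by DESeq2, with relative log expression factors, without the filter and without adult burn replicate 1, so the range over single libraries was 0 to 1. In young burn against young sham DESeq2 called 2, no filter 4, DESeq2 in all 12 libraries 2, library size alone 1, and single libraries left out 0 to 1 (1, Irs1, without young sham replicate 2). In young burn against adult burn no filter called 5, and leaving out single libraries 1 to 3. It was 1, Igf1, without adult burn replicate 3, young burn replicate 1 or young burn replicate 3. For burn over both ages all 12 libraries called 1 (Igfbp5), no filter 5 and library size alone 1, while single libraries left out gave 0 to 3, with 0 without adult sham replicate 3 or young burn replicate 3. For age over both treatments the count was 3 to 5, and for the interaction 0 throughout. The cause of these moves was not tested. The share of all genes called was not computed for the fit without the filter, so its counts have no background beside them. That fit gave far smaller edgeR adjusted p-values at similar log2 fold changes. For Cish with age over both treatments it gave 1.28e-28 at -1.83, against 0.042 at -1.79 in the main fit.

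With the replicate block 4 members were called between the sham groups, 3 between the burn groups (Cish added), 4 with age, 2 with burn (Igfbp4 lost), and 0 in adult burn against adult sham, young burn against young sham and the interaction. No clear pairing by replicate number was seen, since 18 same-number pairs had correlations from -0.197 to 0.153, with 3 above 0.1. With 3 libraries a group these values cannot exclude a pairing or a shared batch. Library size alone moved the median log2 fold change of all genes by -0.13 between the sham groups and 0.16 in young burn against young sham, and 3 of 40 group levels moved by more than 1 SD (Ghr to 136 and Igfbp4 to 195 CPM in young sham, Irs1 to 16.7 CPM in young burn). At these depths Cish rested on as few as 6 counts in a library and Irs1 on 20.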
